A study of Macaca mulatta with 2 samples.

Results

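The endothelin genes examined here were the ligand EDN3 (ENSMMUG00000016131), the converting enzyme ECE1 (ENSMMUG00000010942) and the receptors EDNRA (ENSMMUG00000003659) and EDNRB (ENSMMUG00000005131). They were taken by name, are 4 of the 24037 features that both matrices list, and were followed through every cell class of 2 single-cell RNA libraries of rhesus macaque trabecular meshwork. The trabecular meshwork is a porous tissue at the iris angle that drains aqueous humour. The glaucoma library came from monkeys that developed primary open-angle glaucoma on their own, and the normal library from healthy monkeys. The labels name no transgene, drug or treatment, and give neither the number of animals or eyes behind a library nor their age. The series asked which cell types and pathways bear on contraction and relaxation of this tissue.

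Endothelins are short peptides that cells secrete as inactive precursors. ECE1, a membrane metalloprotease, cuts the precursor to the active peptide. EDNRA and EDNRB are receptors coupled to G proteins. EDNRA on smooth muscle and pericytes is known for lasting contraction through phospholipase C and calcium. EDNRB binds all 3 endothelins alike, is known on endothelium for release of nitric oxide, and with EDN3 serves the development of pigment cells and enteric neurons from the neural crest. EDN3 itself binds EDNRB more tightly than EDNRA. Endothelin contracts the trabecular meshwork and the ciliary muscle. The best known ligand, EDN1, had no feature of that name and was not analysed here.

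After filtering, 8337 glaucoma cells with 30011671 UMIs (unique molecular identifiers, each 1 captured RNA molecule) and 5385 normal cells with 21696437 UMIs remained, with medians of 2751 and 2702 UMIs per cell. They fell into 27 clusters, and clusters named from marker genes are called "like" their cell type. Leading genes of the named classes included markers that had been used to name them. These were MYOC and CHI3L1 in trabecular meshwork-like cells, DES and MYH11 in muscle-like cells, and PMEL and TYR in melanocyte-like cells. They are therefore no independent check of the names. Cluster 3 (387 and 636 cells) kept no name, because meshwork and stromal genes were level among its leading genes. Of the cell barcodes, 17 occurred in both libraries as deposited and 11 among kept cells. With 1 library per group there is no replicate and no test between groups. All intervals in brackets are 95% intervals for the counting of UMIs or cells only, and diagnosis, animal, dissection and day of preparation cannot be told apart. Levels are CPM, the UMIs of a gene per 1000000 UMIs of a class. The order of values is always the glaucoma library first, then the normal library.

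Each of the 4 genes had its highest level in a different named class, though the classes that held them overlapped. EDN3 was a gene of the stromal fibroblast-like and meshwork-like cells and of 1 vascular endothelial cluster. EDNRA stood highest in pericyte-like cells and in 1 of the 3 muscle-like clusters, and was sparse in endothelium, Schwann cells and pigment cells, with at most 9 UMIs per class and library. EDNRB peaked in melanocyte-like cells and was high in pericyte-like, non-myelinating Schwann cell-like and endothelial cells. ECE1 was highest in endothelium. Macrophage-like cells, deep at medians of 4096 and 4317 UMIs, were taken as a background from free RNA. There EDN3 stood at 3.38 and 8.40 CPM, EDNRA at 1.5 and 4.20, EDNRB at 10.5 and 7.0, and ECE1 at 8.65 and 11.2. Of the 28 EDNRB UMIs in glaucoma macrophage-like cells, 13 lay in 1 barcode. T or NK cell-like cells, shallower at medians of 1349 and 1744 UMIs, held more ECE1, at 31.4 and 42.2 CPM (15 and 9 UMIs). Their EDN3 was at 10.5 CPM in the glaucoma library (5 UMIs), with no UMI in the normal one. The background in shallow classes may thus differ from the macrophage-like one, and was not tested.

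**Figure D1:**
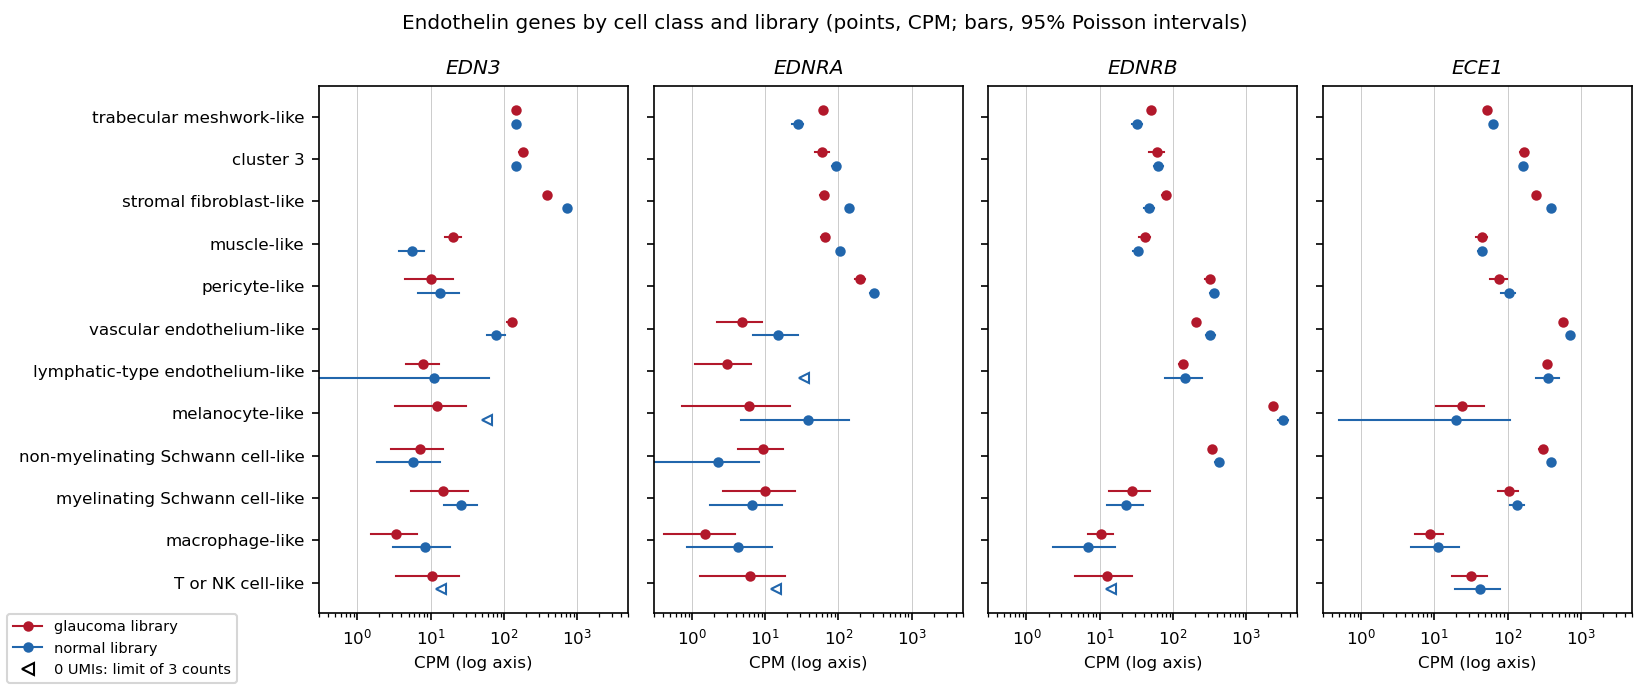
Level of EDN3, EDNRA, EDNRB and ECE1 (CPM, log axis) in 11 named classes and unnamed cluster 3, with the glaucoma library in red, the normal library in blue and bars for 95% Poisson intervals. EDN3 is highest in stromal fibroblast-like cells (390 and 728 CPM), EDNRA in pericyte-like cells (197 and 304), EDNRB in melanocyte-like cells (2295 and 3139) and ECE1 in vascular endothelium-like cells (579 and 708).

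EDN3, the ligand, had its highest class level in stromal fibroblast-like cells, the PDGFRA and DCN cells of the surrounding connective tissue. It stood there at 390 CPM [370, 410] in the glaucoma library and at 728 CPM [699, 758] in the normal one. A UMI of EDN3 was found in 52.4% and 65.9% of these cells, against 0.948% and 1.96% of macrophage-like cells. In cells thinned to 1000 UMIs each, the stromal shares were 30.6% and 43.3%. Thinning left out shallower cells, here 118 of 1432 and 146 of 1175, and in the thinned shares given further on 45 of 639 and 80 of 307 vascular and 95 of 523 and 35 of 331 pericyte-like cells. Trabecular meshwork-like cells came to 146 CPM [139, 153] and 148 CPM [138, 158], and cluster 3 to 183 CPM [161, 208] and 148 CPM [135, 162]. Vascular endothelium-like cells stood at 128 CPM [112, 145] and 78.7 CPM [58.0, 104]. In the glaucoma order, meshwork-like and vascular cells were neighbours whose intervals overlap, and in the normal order meshwork-like cells and cluster 3 were.

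Other classes held little EDN3. Lymphatic-type endothelium-like cells were at 7.95 and 11.2 CPM, the latter from 1 UMI with an interval of 0.283 to 62.4 CPM that reaches the vascular one. Pericyte-like and non-myelinating Schwann cell-like cells stood at 5.76 to 13.5 CPM. Muscle-like cells were at 20.2 CPM (64 UMIs) and 5.59 CPM (29 UMIs), but 38 of the 64 glaucoma UMIs lay in cluster 22, a group of 74 glaucoma and 19 normal cells whose leading genes also include CCK and CYTL1, genes that lead the meshwork-like clusters. No EDN3 UMI was seen in 16 normal melanocyte-like cells, where 3 counts would be 58.5 CPM. Cluster 25, an unnamed group of 29 cells found only in the glaucoma library and led by TAC1 and CRHBP, held 496 CPM [384, 631] of EDN3, with a UMI in 26 of its 29 cells.

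Among stromal fibroblast-like cells EDN3 was lower in the glaucoma library, with a log2 ratio of glaucoma over normal of -0.90 [-0.996, -0.81], beside a median of -0.24 over all genes tested in the class. Calls needed a ratio of at least 2-fold, an interval that excludes equality and at least 100 UMIs, and EDN3 missed the first. The ratio was below 0 in each of the 4 stromal clusters, though in cluster 18 the interval included 0, at -0.50 [-1.17, 0.13]. Cluster 1 stood at 520 and 877 CPM, cluster 9 at 350 and 717, cluster 11 at 389 and 593, and cluster 18 at 117 and 166. Only cluster 9 passed the limit, at -1.04 [-1.22, -0.86], in a cluster where 4.74% of tested genes were called lower. That call was lost when the endothelin and pathway genes were left out of the clustering: 65.5% of cluster 9 then joined cells of cluster 1, in a cluster at 423 and 809 CPM, a ratio of -0.94 [-1.06, -0.81]. EDN3 is itself 1 of the 10 leading genes of cluster 1. Over 10 ways of processing, the class ratio ran from -1.17 to -0.35, the last with cluster 3 counted as stromal. Of 10 clusters of any class with at least 50 EDN3 UMIs, 7 had a ratio below 0. As many or more below 0 were found for 44.6% of the 1881 genes with that many UMIs there.

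Within the meshwork-like class EDN3 varied far more between clusters than between libraries. Cluster 17, led by GPHA2, CHI3L1 and PTGDS, held 505 CPM [452, 562] and 401 CPM [361, 445], with a UMI in 63.3% and 76.1% of its cells. Cluster 2, led by CYTL1, CXCL14 and CCK, held 195 and 316 CPM. Cluster 8, led by MGARP and with only 31 normal cells, held 56.8 and 135 CPM. Cluster 12, led by PLA2G2A, held 26.2 and 40.7 CPM, and cluster 19 held 84.6 and 84.3 CPM. The class ratio of -0.02 [-0.14, 0.10] joined clusters of opposite sign: -0.70 [-0.88, -0.51] in cluster 2, -0.63 [-1.24, -0.07] in cluster 12 and 0.33 [0.11, 0.55] in cluster 17. When each cluster was given the same weight in both libraries, the class stood at 139 and 187 CPM, a ratio of -0.43.

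Vascular endothelium-like cells had the opposite sign for EDN3, at 0.70 [0.24, 1.18] with 238 and 48 UMIs, in a class whose median over tested genes was -0.09. A UMI was found in 26.4% and 13.4% of cells, and in 10.4% and 7.93% after thinning, with median depths of 2334 and 1553 UMIs. The ratio kept this sign in all 9 alternatives, from 0.46 to 0.79. The signal came from cluster 6, at 135 and 90.3 CPM, while cluster 20 held 4 UMIs in glaucoma and none in normal cells. Beside it, the summed level of the 12 stromal fibroblast markers in cluster 6 was 5340 and 3533 CPM, and that of the 12 meshwork markers 292 and 278 CPM. CLEC3B, a stromal marker, is also a leading gene of cluster 6. The part of stromal RNA in the EDN3 value was not tested.

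ECE1, the converting enzyme, was highest in endothelium. Vascular endothelium-like cells stood at 579 CPM [545, 615] and 708 CPM [643, 778], and 72.6% and 67.4% of cells held a UMI, against 2.69% and 3.92% of macrophage-like cells. Lymphatic-type endothelium-like cells, next in the glaucoma order, were at 349 CPM [323, 376] and 358 CPM [245, 506], the latter from 33 cells. Non-myelinating Schwann cell-like cells were at 302 CPM [269, 339] and 396 CPM [355, 440], and stromal fibroblast-like cells at 245 CPM [230, 261] and 395 CPM [374, 417]. In the normal library the intervals of these 3 classes overlap one another. Lower levels were seen in myelinating Schwann cell-like cells (104 and 136 CPM), pericyte-like cells (76.4 and 103), meshwork-like cells (52.6 and 64.0) and muscle-like cells (44.5 and 44.5). Melanocyte-like cells held 8 and 1 UMIs, and 12 surface epithelium-like cells of the normal library held 18 UMIs, or 180 CPM [107, 284].

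The endothelium itself split by ECE1. Cluster 20, a set of 59 and 56 vascular cells led by GJA5, MECOM and SPOCK2, held 931 CPM [771, 1114] and 1592 CPM [1325, 1897]. Cluster 6, led by PLAT and VWF, held 553 CPM [519, 590] and 578 CPM [515, 646]. The intervals of the 2 clusters do not overlap in either library. The split did not rest on the endothelin genes: when the 4 genes and their pathway were left out of the clustering, 98.3% of cluster 20 and 99.8% of cluster 6 came together again. EDNRB showed the reverse order, with 219 and 373 CPM in cluster 6 against 1 UMI in glaucoma and none in normal cells of cluster 20, where 3 counts would be 38.2 CPM. The class thus joined vessel cells rich in converting enzyme with almost no EDNRB and vessel cells with both.

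ECE1 passed the call limits in none of the classes where it was measured. Of the members with at least 100 UMIs, none was called in non-myelinating Schwann cell-like cells, myelinating Schwann cell-like cells or cluster 3, where 8.21%, 6.88% and 6.67% of tested genes were called higher or lower. The ratio was -0.69 [-0.81, -0.57] in stromal fibroblast-like cells, -0.39 [-0.62, -0.16] in non-myelinating Schwann cell-like cells, -0.29 [-0.45, -0.13] in vascular and -0.28 [-0.47, -0.09] in meshwork-like cells. The meshwork-like value moved to -1.03 when each library was clustered alone and to -0.13 with the same cluster weights. Muscle-like cells gave 0.00 [-0.31, 0.31], pericyte-like cells -0.43 [-0.94, 0.06] and cluster 3 gave 0.06 [-0.17, 0.29]. Stromal cluster 18 was the 1 cluster called lower, at 160 and 330 CPM, a ratio of -1.04 [-1.58, -0.53], where 6.02% of tested genes were called lower. Clustered without the endothelin and pathway genes, 63.7% of it came together in a cluster at 216 and 374 CPM (-0.79 [-1.61, -0.05]), whose 35 glaucoma cells are too few for a call. Of 17 clusters with at least 50 ECE1 UMIs, 14 had a ratio below 0, and in 4 the interval excluded 0. As many or more clusters below 0 were found for 30.7% of the 508 genes with that many UMIs in the same clusters.

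EDNRA, the contractile receptor, was highest in pericyte-like cells, the RGS5 and KCNJ8 cells of small vessels, at 197 CPM [168, 231] and 304 CPM [267, 344]. Next in the glaucoma library were muscle-like (65.7 CPM), stromal fibroblast-like (64.4 CPM) and meshwork-like cells (61.0 CPM) and cluster 3 (60.3 CPM), whose intervals overlap. The normal library had an order among them: stromal fibroblast-like cells at 140 CPM [127, 153], muscle-like cells at 107 CPM [97.9, 116], cluster 3 at 92.8 CPM [82.8, 104] and meshwork-like cells at 27.8 CPM [23.6, 32.4]. Here only muscle-like cells and cluster 3 overlap. Vascular endothelium-like cells held 9 UMIs in each library (4.82 and 14.8 CPM), and lymphatic-type endothelium-like cells 6 and 0. Both Schwann classes were below 10 CPM in both libraries, and melanocyte-like cells held 2 UMIs in each.

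The muscle-like value was an average of unlike clusters. Cluster 7, whose leading genes include RERGL, ACTG2, PLN and TNNC1, held 181 CPM [155, 209] of EDNRA in glaucoma cells and 415 CPM [380, 452] in normal cells. Cluster 4, the larger muscle-like cluster, led by CHRM3, a muscarinic receptor, and ATP2A1, a calcium pump, held only 7.91 CPM [4.21, 13.5] and 6.78 CPM [4.43, 9.93]. The macrophage-like background for EDNRA was 1.5 and 4.20 CPM. EDNRB was split the same way, at 108 and 124 CPM in cluster 7 and 6.69 and 2.61 CPM in cluster 4, as was ECE1, at 86.7 and 109 against 21.9 and 24.2 CPM. Muscle markers were high in cluster 7 in both libraries, 21961 and 21656 CPM summed over 8 genes. In both libraries the CHRM3-led cells held little of either receptor, and the RERGL-led cells held both. When clustered without the endothelin genes and their pathway, 99.4% of cluster 4 and 99.7% of cluster 7 came together again.

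The libraries differed most for EDNRA in cluster 7, the lowest ratio of any cluster with at least 50 EDNRA UMIs. The ratio was -1.20 [-1.45, -0.95], called lower where 4.98% of 3132 tested genes were. The cluster was chosen for description after its values were seen. A UMI was found in 132 of 363 glaucoma cells (36.4% [31.4, 41.5]) and in 274 of 404 normal cells (67.8% [63.0, 72.4]). At 1000 UMIs per cell these shares were 15.2% [11.6, 19.4] and 35.6% [30.9, 40.6]. EDNRB in the same cells gave -0.19 [-0.56, 0.18], with shares of 12.7% and 13.3% after thinning. Cells with both receptors numbered 35 and 88, and cells with neither 180 and 98. The call held in all 8 alternatives, among them every deposited barcode, each library clustered alone and removal of the richest barcode, with ratios from -1.44 to -1.10. Median depth was 2496 and 2989 UMIs and the median mitochondrial share 6.35% and 3.49%, whose part in the difference was not tested. Pericyte markers summed to 2503 and 2311 CPM, and the median over all tested genes of this cluster was -0.10.

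**Figure D2:**
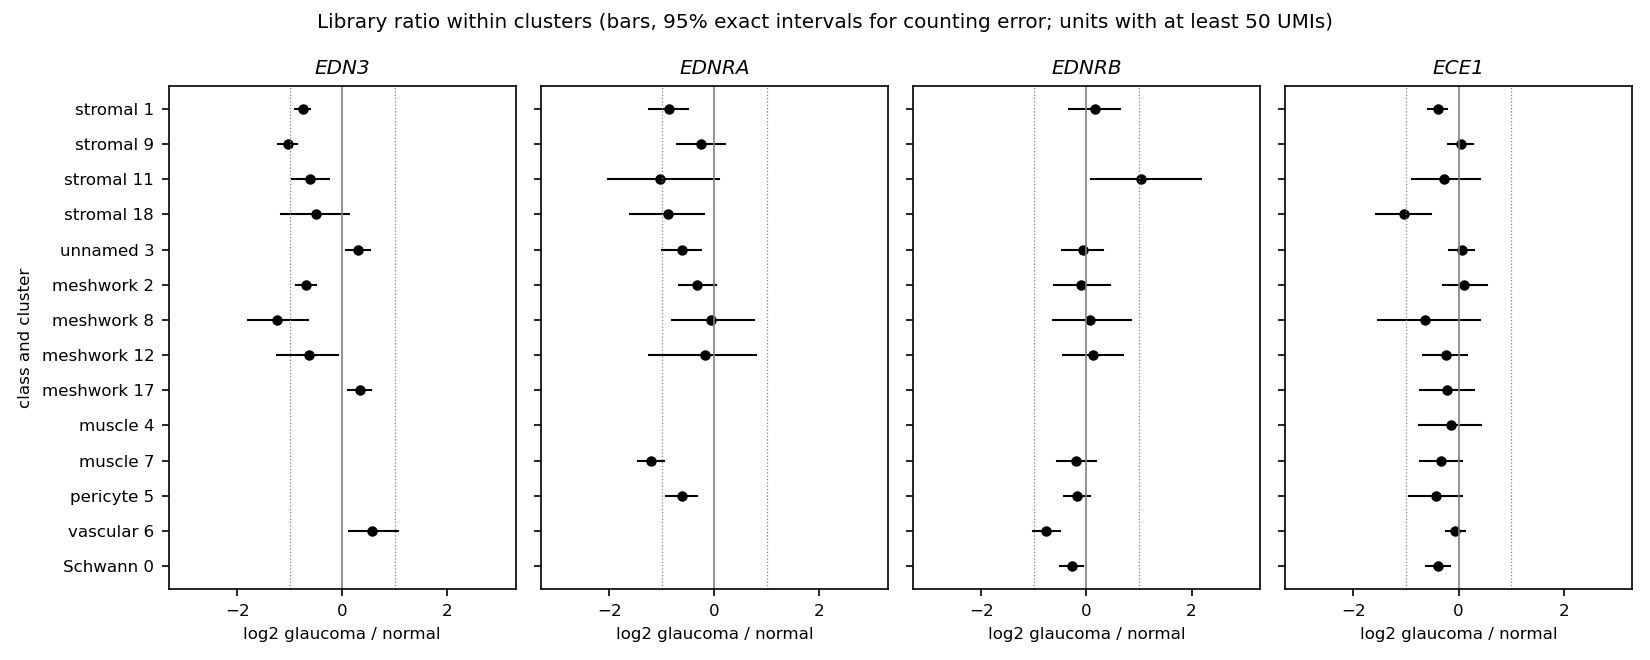
Log2 ratio of the glaucoma over the normal library for each endothelin gene within single clusters, with 95% exact intervals for counting error, a solid line at 0 and dotted lines at 2-fold; clusters with fewer than 50 UMIs of a gene are left blank. EDNRA lies left of 0 in all 10 clusters shown, lowest in muscle cluster 7 at -1.20, while EDN3 and EDNRB fall on both sides.

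In pericyte-like cells EDNRA was lower as well, at -0.62 [-0.92, -0.33], below the 2-fold limit. A UMI was found in 25% and 47.7% of cells at median depths of 1433 and 2288 UMIs, and in 17.1% and 26.0% after thinning. EDNRB in pericyte-like cells differed less, at -0.18 [-0.43, 0.07], with thinned shares of 27.6% and 26.7%. None of the members was called in this class, where 4.92% of genes were called lower and 2.44% higher. Stromal fibroblast-like cells had 1 of 4 members called, EDNRA, at 64.4 and 140 CPM, a ratio of -1.12 [-1.35, -0.89], in a class where 9.8% of genes were called lower and 2.82% higher. With the same cluster weights the stromal ratio was -0.74, short of 2-fold. Cluster 3 stood at 60.3 and 92.8 CPM, a ratio of -0.62 [-0.9996, -0.26].

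Among classes with at least 100 EDNRA UMIs, meshwork-like cells alone had a higher EDNRA level in the glaucoma library, at 61.0 CPM [56.6, 65.6] and 27.8 CPM [23.6, 32.4]. The ratio was 1.14 [0.88, 1.39], which made EDNRA the 1 of 4 members called in the class, where 5.15% of 8297 genes were called higher and 5.46% lower. No single meshwork cluster with at least 50 UMIs showed this direction. Cluster 2 stood at 73.2 CPM [66.3, 80.5] and 91.9 CPM [73.4, 114], cluster 8 at 68.2 and 71.8 CPM, and cluster 12 at 9.83 and 11.1 CPM. Cluster 17 held 5 and 17 UMIs (7.60 and 19.1 CPM) and cluster 19 held 4 and 1. The makeup of the class also differed. The EDNRA-rich clusters 2 and 8 gave 48.4% and 34.8% of its glaucoma UMIs but 16.4% and 3.94% of its normal UMIs. Cluster 12 gave 10.4% and 60.4%. With the same cluster weights in both libraries the class stood at 42.1 and 49.7 CPM, a ratio of -0.24. The class ratio was also only 0.23 to 0.35 with doublet calls kept, with the libraries clustered separately, when clustered without the endothelin and pathway genes, and with cluster 3 added. The last 2 are not separate checks: clustered without those genes, 96.7% of cluster 3 fell in a cluster named meshwork-like. In 5 of the 10 alternatives the class ratio was counted as unchanged, and its highest value was 1.32. Clusters that lie mostly in 1 library may be that library rather than a cell type, so makeup and level cannot be told apart here. Median depth in the class was 5504.5 and 7870.5 UMIs. Summed muscle markers were 1142 and 697 CPM, and summed stromal fibroblast markers 11550 and 19346 CPM. The part of depth and of these markers in the ratio was not tested.

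**Figure D3:**
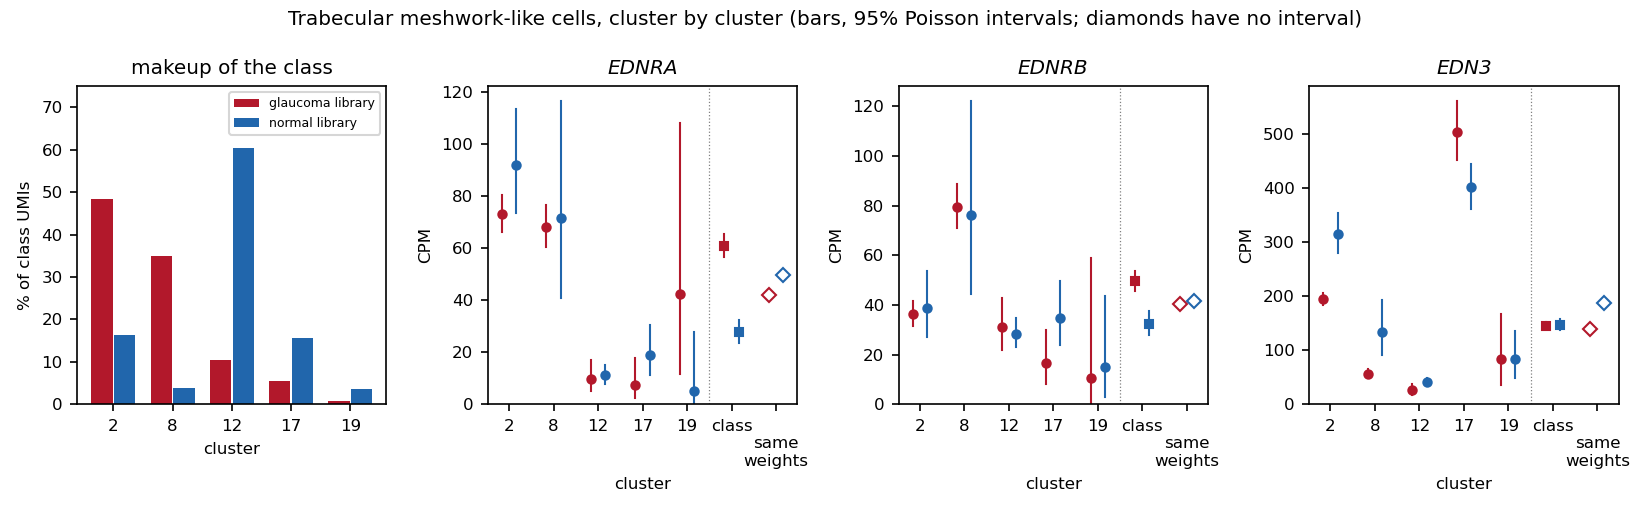
Left, share of the meshwork-like class's UMIs that each of its 5 clusters gave in the glaucoma (red) and normal (blue) library; right, CPM of EDNRA, EDNRB and EDN3 in each cluster, in the whole class (squares) and with the same cluster weights in both libraries (diamonds), with 95% Poisson intervals. The EDNRA class values of 61.0 and 27.8 CPM lie apart although clusters 2, 8 and 12 overlap between libraries, and the weighted values are 42.1 and 49.7 CPM.

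Across all 10 clusters with at least 50 EDNRA UMIs the ratio was below 0, from -1.20 to -0.07 with a median of -0.62, and the interval excluded 0 in 5 of them. This direction was not particular to the gene. Of 1903 genes with that many UMIs in the same 10 clusters, 22.7% were also below 0 in every one. Measured against the median gene of each cluster, EDNRA was lower in 9 of 10, but the share of all genes that reach this count was not computed. The 10 include cluster 8, whose 31 normal cells are below the comparison limit of 50. Over all kept cells of a library, whatever their class, EDNRA came to 48.5 and 80.4 CPM, a ratio of -0.73 [-0.83, -0.63]. These sums follow the cells that were captured: meshwork-like cells gave 49.3% of the glaucoma EDNRA UMIs and 9.0% of the normal ones, muscle-like cells 14.3% and 31.7%.

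EDNRB was by far highest in melanocyte-like cells, the pigment lineage in which it is known to act, at 2295 CPM [2135, 2464] and 3139 CPM [2673, 3663]. A UMI was found in 86 of 89 and in 16 of 16 of these cells. One normal barcode held 40 of the 161 UMIs. Non-myelinating Schwann cell-like cells stood at 345 CPM [309, 384] and 420 CPM [378, 466], while myelinating Schwann cell-like cells were at 27.2 CPM [13.6, 48.7] and 23.0 CPM [12.6, 38.6]. Pericyte-like cells were at 316 CPM [278, 358] and 358 CPM [318, 401]. Vascular endothelium-like cells came to 205 CPM [185, 226] and 325 CPM [281, 373], and lymphatic-type endothelium-like cells to 137 CPM [121, 154] and 146 CPM [77.5, 249]. Stromal fibroblast-like (79.3 and 47.5), meshwork-like (49.5 and 32.5) and muscle-like cells (41.1 and 32.8) followed. Among the normal neighbours, Schwann, pericyte-like and vascular intervals overlap in turn.

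The melanocyte-like cells numbered 89 and 16, yet they gave 24.1% of all EDNRB UMIs of the glaucoma library and 9.11% of the normal ones. The sum over all kept cells, 105 and 81.5 CPM, a ratio of 0.37 [0.29, 0.45], had the opposite sign to EDNRA. That sum moves with which cells were captured. Within melanocyte-like cells themselves the values were lower in the glaucoma library, but 16 normal cells are too few for the comparison limit of 50.

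EDNRB was uneven within vessels. In vascular endothelium-like cells 28.8% and 21.5% of cells held a UMI, but the 16 glaucoma cells with at least 5 UMIs held 32.7% of all EDNRB UMIs, and 11 such normal cells held 54.0%. One normal barcode gave 26 of 198. The ratio was -0.66 [-0.92, -0.41] and stayed below 0 in the 9 alternatives, from -0.76 to -0.51. None of the members was called in this class, where 1.8% of genes were called higher and 1.72% lower. Thinned shares of cells with a UMI were 14.6% and 16.7%.

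Outside the endothelium EDNRB differed little or unsteadily between libraries. The ratio was -0.28 [-0.50, -0.07] in non-myelinating Schwann cell-like cells, -0.06 [-0.46, 0.32] in cluster 3 and 0.33 [-0.02, 0.66] in muscle-like cells. Meshwork-like cells gave 0.61 [0.36, 0.85], and -0.045 with the same cluster weights, where the class stood at 40.2 and 41.5 CPM. Cluster 8 was the richest meshwork cluster in EDNRB, at 79.4 and 76.2 CPM. Stromal fibroblast-like cells gave 0.74 [0.45, 1.03], but -0.49 over every deposited barcode and -0.55 under a stricter cell filter. That value rested on cluster 11, which held 223 of the 309 glaucoma UMIs and only 9 normal UMIs in 55 cells (145 and 71.2 CPM). Cluster 11 was called higher at 1.03 [0.08, 2.18], where 5.46% of tested genes were. The call was lost when clustered without the endothelin and pathway genes, at 129 and 88.3 CPM (0.55 [-0.25, 1.48]) in the cluster that took 92.8% of its cells. Cluster 1 gave 63.6 and 56.9 CPM and cluster 9 gave 12.6 and 23.5 CPM.

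Because capture differs between the receptor genes, their balance was compared only between cells and libraries, as EDNRA UMIs in percent of EDNRA plus EDNRB UMIs. It spanned almost the whole scale. Stromal cluster 9 was at 85.3% [76.9, 91.5] and 78.8% [69.4, 86.4], muscle cluster 7 at 62.5% [56.5, 68.2] and 77.0% [73.7, 80.2], and meshwork cluster 2 at 66.8% [63.0, 70.5] and 70.2% [61.3, 78.2]. Pericyte-like cells were mixed, at 38.5% [33.7, 43.4] and 45.9% [41.6, 50.2]. Meshwork cluster 12 lay at 24.0% and 28.1%. Vascular endothelium-like cells were at 2.30% and 4.35%, non-myelinating Schwann cell-like cells at 2.59% and 0.545%, and melanocyte-like cells at 0.262% and 1.23%. Among single clusters, intervals of the libraries did not overlap in cluster 7 and in stromal cluster 1, at 58.3% [49.6, 66.6] and 74.0% [69.4, 78.3], both with the smaller EDNRA share in the glaucoma library. The meshwork-like class as a whole had the opposite order, at 55.2% [52.4, 57.9] and 46.0% [40.7, 51.5]. Its clusters 2 and 12, given above, and cluster 8, at 46.2% and 48.5%, did not show that order. Their intervals overlap between libraries. The muscle-like class was at 61.5% and 76.5%. The stromal class as a whole was at 44.8% and 74.6%, but its glaucoma share was 65.1% over every deposited barcode and 69.9% under the stricter filter.

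**Figure D4:**
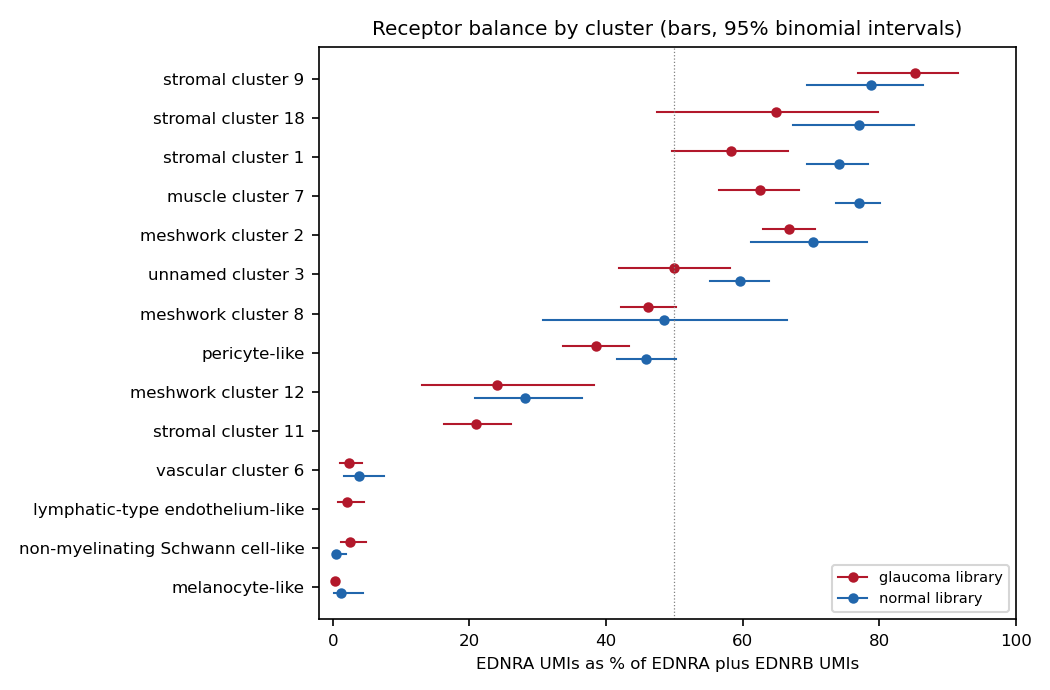
EDNRA UMIs as percent of EDNRA plus EDNRB UMIs for 14 clusters, glaucoma library in red and normal library in blue, with 95% exact binomial intervals and a dotted line at 50%; a library with fewer than 20 receptor UMIs has no point. Stromal cluster 9, muscle cluster 7 and meshwork cluster 2 lie right of the line in both libraries, and endothelium, non-myelinating Schwann cells and pigment cells lie below 5%.

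Among the classes, single cells with both receptors were most frequent in pericyte-like cells, 51 of 523 in the glaucoma library and 87 of 331 in the normal library. A further 80 and 71 held EDNRA alone and 140 and 78 EDNRB alone. Such counts depend on depth, which was 1433 and 2288 UMIs. Muscle cluster 7, at 2496 and 2989 UMIs, also often had cells with both receptors, 35 of 363 and 88 of 404. Ligand and receptor were also counted in the same cells. Of 714 glaucoma and 255 normal meshwork-like cells with an EDN3 UMI, 272 and 91 also held a UMI of a receptor, and 218 and 106 one of ECE1. The receptor share of EDN3 cells was 38.1% and 35.7%, beside 40.4% and 25.1% of all meshwork-like cells. Among normal cells it was 45.6% beside 41.5% in cluster 2, and 33.8% beside 22.8% in cluster 12. In stromal fibroblast-like cells the receptor share was 30.7% and 32.2%, beside 27.1% and 31.4% of all cells. All these same-cell counts include any doublets left uncalled. Doublet calls took 3.43% and 0.829% of passing cells, where 6.91% and 4.34% were expected. The part of doublets and of depth in these shares was not tested.

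The genes around the receptors were read from a list of 52 genes of endothelin processing and signalling, 51 of which had a feature. In meshwork-like cells 32 were measured with at least 100 UMIs, and 2 were higher, 2 lower and 28 in between, with a median of -0.08 beside -0.03 for all tested genes. These counts are near the background of 5.15% higher and 5.46% lower. PPP1R14A, an inhibitor of myosin phosphatase, was at 49.4 and 11.1 CPM (2.15 [1.77, 2.55]) and came to 1.39 once both libraries had the same cluster weights. RGS5, a brake on G protein signalling and also a pericyte marker, was at 148 and 68.8 CPM (1.11), and at 0.46 with those weights. PLCB1, the phospholipase that receptors of this kind activate and 1 of the 2 called lower, was at 42.9 and 125 CPM (-1.54), but at -0.32 with those weights. Among the 32 measured genes, GNAI2 and ITPR1 were past 2-fold only with those weights. GNAI2, an inhibitory G protein, was at 1.02 against 0.62. ITPR1, a calcium channel of internal stores, was at -1.25 against -0.41.

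Muscle-like cells had 29 of these genes measured, with 0 higher, 1 lower and a median of -0.25 beside -0.12 for all genes, where 3.3% of tested genes were called higher and 3.83% lower. The 1 was ITPR1, at 262 and 544 CPM (-1.06 [-1.17, -0.94]), and at -0.72 with the same weights. Pericyte-like cells had 16 measured, with 0 higher and 2 lower and a median of -0.38 beside -0.02, where 2.44% of all tested genes were higher and 4.92% lower. In vascular endothelium-like cells 0 of 22 passed the limit in either direction, where 1.8% of all tested genes were higher and 1.72% lower. A count of 0 is near that background. NOS3 and the genes downstream of nitric oxide, where they were measured, were among the 22.

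Other genes that make or break down endothelins were measured in few classes. EDN2, another ligand, gave 6 and 17 UMIs in meshwork-like cells. ECE2, a relative of ECE1, was measured in meshwork-like cells at 52.6 and 37.5 CPM, a ratio of 0.49 [0.26, 0.72] that became -0.70 with the same cluster weights. In cluster 8 it stood at 88.5 CPM [79.6, 98.1] and 130 CPM [87.1, 187]. MME, the protease neprilysin, which degrades endothelin, reached 287 CPM [237, 344] and 184 CPM [151, 221] in myelinating Schwann cell-like cells and had fewer than 30 UMIs in any other class of either library.

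The genes with the most similar pattern were found by the correlation of log2(CPM + 10) over 18 points, 9 classes in 2 libraries, among 10299 genes. Points of a library share its depth and free RNA, so these are descriptions. The 9 were the classes with enough cells in each library for a comparison. Melanocyte-like cells (89 and 16) and lymphatic-type endothelium-like cells (550 and 33) were therefore left out. Melanocyte-like cells had the highest EDNRB level, 2295 and 3139 CPM, with only 8 and 1 ECE1 UMIs. The correlations of EDNRB, with ECE1 among them, thus describe its pattern without its main class. EDN3 was most like CYP26A1 and TRIM29 (Pearson r 0.95 each) and EPHX1 (0.94). EDNRA was most like SMOC2, ASPN and C1QTNF7 (0.94 each), EDNRB like ASAP2 (0.93), RAPGEF2 and RBMS3 (0.92 each), and ECE1 like ELP2, ANGEL1 and UBTF (0.93 each). Between members, r was 0.71 for ECE1 and EDNRB, 0.50 for ECE1 and EDN3, 0.34 for the 2 receptors, 0.33 for EDN3 and EDNRA, 0.13 for EDN3 and EDNRB, and 0.06 for ECE1 and EDNRA.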

How the data were processed

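Single cells of trabecular meshwork were profiled with a droplet 3-prime kit, 1 library per group. The deposited values are counts, whole-number UMIs per gene and barcode without normalization, made by the authors with Cell Ranger: version 6.0.0 per the file headers, 4.0 (with Seurat 3.0) per the submitters' processing notes. Which genome build and annotation they used is not given in the sources used here. The files name 15580 features, and a further 871 took a symbol from a reference table of gene names.

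Cells with at least 500 genes and under 20% mitochondrial UMIs (13 genes) were kept, and Scrublet doublet calls removed at an expected 0.8% per 1000 cells (3.43% and 0.829% of passing cells were called). Both libraries were clustered together without integration in scanpy 1.11.5 (scaling to 10000 UMIs, 2000 variable genes, 30 components, 15 neighbours, Leiden resolution 1, seed 1; Python 3.11.15). Clusters were named from 19 marker sets by a rule settled after clusters had been seen: at least 3 markers, each 2-fold or more over the median of clusters and present in at least 10% of cells, and no other class with as many of the 10 leading genes when that is more than 1. The members, the pathway list and the marker sets were chosen with earlier results of these data known.

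UMIs were summed per class or cluster and library. Levels have exact Poisson intervals, ratios exact conditional binomial intervals and shares Clopper-Pearson intervals, all at 95%, checked on simulated data. At 0 UMIs the limit is 3 counts. Genes were called at 2-fold or more, with an interval that excludes equality and at least 100 UMIs, in classes or clusters with at least 50 cells in each library. Values at the same cluster weights average the clusters of a class with 1 weight each for both libraries. Named were the 4 members, the called genes of the pathway list in meshwork-like, muscle-like and pericyte-like cells (GNAI2 and, for meshwork-like cells, ITPR1 were added after their values were seen, and 1 gene called lower in meshwork-like and 2 in pericyte-like cells are not reported here), its processing genes with at least 100 UMIs in a class, and the 3 most similar genes per member. Alternatives were other cell filters, doublets kept, separate clustering, clustering without these genes, thinning to 1000 UMIs, median-gene scaling, the same cluster weights and leaving out the richest barcode.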

Additional observations from a re-analysis of the deposited data

How the results depend on the processing

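The meshwork-like ratios depended most on which clusters formed the class. The EDNRA ratio of 1.14 became 0.26 with doublet calls kept, 0.35 with the libraries clustered separately, 0.24 when clustered without the endothelin and pathway genes, 0.23 with cluster 3 added (an alternative chosen after seeing the data) and -0.24 with the same cluster weights. EDNRB (0.61) became 0.17, 0.18, 0.20, 0.20 and -0.045 under the same 5 settings. ECE1 (-0.28) became -0.63, -1.03, -0.64 and -0.65 under the first 4 and -0.13 under the fifth. Of 10 alternatives, 5 left the EDNRA ratio counted as unchanged, and its highest value was 1.32. The EDNRB ratio was also counted as unchanged in 5, with a highest value of 0.83. EDN3 (-0.02) became 0.18 over every deposited barcode, 0.29 under a stricter cell filter, -0.35 with separate clustering and -0.43 with the same weights. The EDNRA share of receptor UMIs in this class was 49.9% for the glaucoma library under the stricter filter, and 54.5%, 53.5% and 54.4% for the normal library with doublets kept, separate clustering and clustering without the genes. Pathway genes called lower in it numbered 4 with no minimum of UMIs, 1 after thinning and 1 with the same weights; the causes of these changes were not tested. EDNRA in muscle-like cells was -1.32 over every deposited barcode and -1.11 with the same weights, against -0.70, and EDNRA in cluster 7 kept its direction and call in all 8 alternatives. In pericyte-like cells 6 pathway genes were lower with no minimum, against 2. No paired analysis was possible because each group has 1 library. Of 9 compared classes and cluster 3, low UMIs left EDN3 without a comparison in 6, EDNRA in 5, EDNRB in 3 and ECE1 in 2, and no interval covers the spread between animals.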
